A study of Mus musculus with 2 samples.

Results

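Transcripts of the Nrf2, Keap1 and thioredoxin system were compared between B16/BL6 and B16, both mouse melanoma lines of the C57BL/6 strain. The 10 genes were chosen by name, with earlier results of these data known. They were Nfe2l2, Keap1, Nqo1, Osgin1, Txnrd1, Txn1, Srxn1, Prdx1, Prdx6 and Sqstm1. All 10 were found among the 23284 gene symbols listed for each library, and all 10 were among the 10709 expressed genes, meaning those that reached 1 FPKM in either library. FPKM counts the fragments of a transcript per kilobase of its length, relative to the library's total. The study searched for genes related to metastasis. B16/BL6 is an invasive subline that was derived from B16 melanoma, and B16 is its parental line. B16/BL6 cells were grown in RPMI and B16 cells in DMEM, both with 10% FBS and 1% penicillin/streptomycin. The medium and the line therefore cannot be told apart. There was 1 library per line, so the values carry no replicate error and the differences were described, not tested. In bulk RNA, fewer cells of a type and less RNA per cell cannot be told apart.

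Nrf2, encoded by Nfe2l2, is a transcription factor that switches on genes against oxidants and reactive chemicals. Keap1 binds Nrf2 and hands it to a ubiquitin ligase for degradation, and oxidants acting on Keap1 cysteines stop this, so that Nrf2 activity is set largely at the protein level. In the nucleus Nrf2 pairs with small Maf proteins at antioxidant response elements. The thioredoxin system passes electrons from NADPH through thioredoxin reductase to thioredoxin, which in turn serves peroxiredoxins that remove peroxides. In pigment cells melanin synthesis itself yields reactive quinones and peroxide.

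The cells carried the transcripts of their labelled type in both libraries. All 7 melanocyte markers, among them Mitf and Sox10, passed 1 FPKM, and their summed level was 18525 FPKM in B16/BL6 and 12082 FPKM in B16. Past 2-fold were 2 of the 7, both higher in B16/BL6. They were the tyrosinase gene Tyr (164 FPKM in B16/BL6 and 10.6 FPKM in B16) and the melanosome fibril gene Pmel (4651 and 2165.7 FPKM in B16/BL6 and B16). Of all expressed genes, 3.31% were at least 2-fold higher and 3.16% at least 2-fold lower. Mitf (90.7 FPKM in B16/BL6 and 97.05 FPKM in B16) and Sox10 (262 and 308 FPKM in B16/BL6 and B16) were slightly lower in B16/BL6. Mlana, Tyrp1 and Dct were higher there, within 2-fold. Pmel lies on chromosome 10, whose expressed genes had a median log2 difference of 0.41. The part of these marker differences in the results below was not tested. The 5 fibroblast markers summed to 0.729 FPKM in B16/BL6 and 0.532 FPKM in B16, with 3 of the 5 (Col3a1, Dcn and Lum) listed at 0 in both. Among leukocyte markers, Ptprc was at 0.0814 FPKM in B16/BL6 and 0.0180 FPKM in B16, Cd68 was at 1.23 FPKM in B16/BL6 and 2.83 FPKM in B16, and Cd3e was listed at 0 in both. The 4 endothelial markers summed to 0 FPKM in B16/BL6 and 0.0298 FPKM in B16, with Cdh5, Kdr and Tek at 0 in both. The 4 epithelial markers summed to 0.0976 FPKM in B16/BL6 and 0.108 FPKM in B16, with Epcam, Krt5 and Krt14 at 0 in both. Read depth was not recorded. Among 379 genes under 0.1 FPKM in both libraries, 155 shared a ratio of 0.906 within 0.5%, which puts the B16/BL6 library at about 1.10 times the depth of the B16 library.

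Of the 10 genes, 4 were higher in B16/BL6 by 2-fold or more, and 0 were lower by as much. Differences are B16/BL6 minus B16 in log2(FPKM + 1), and the added 1 makes those of low genes too small. Of all 10709 genes, 3.31% were at least 2-fold higher and 3.16% at least 2-fold lower. The 4 genes were Nqo1, Osgin1, Txnrd1 and Prdx6. Another 4, Sqstm1, Srxn1, Txn1 and Prdx1, were above 0 but within 2-fold, and Nfe2l2 and Keap1 were below 0. Above 0 lay 50.6% of all genes. The median log2 difference was 0.92 for the 10 genes and 0.01 for all genes. Because the 10 genes were chosen with earlier results known, these contrasts with all genes are descriptive only. The 10 transcripts summed to 3674 FPKM in B16/BL6, 0.652% of that library's FPKM, and to 2192 FPKM in B16, 0.438% of it.

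**Figure D1:**
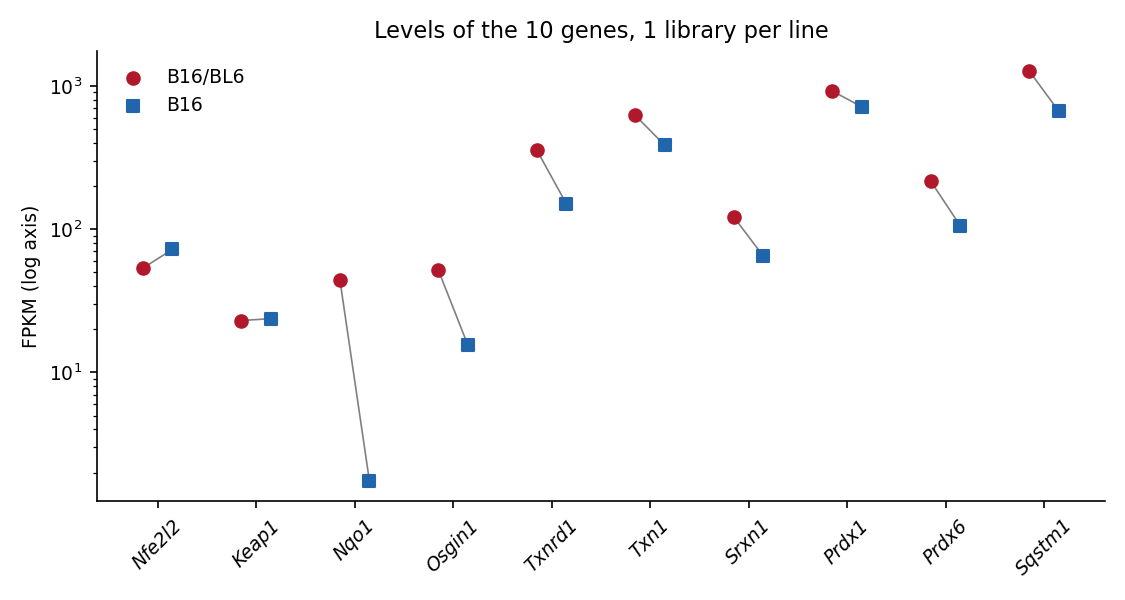
FPKM of the 10 genes on a log axis, with B16/BL6 as red circles and B16 as blue squares, 1 library per line. Nqo1 shows the widest gap, at 44.5 FPKM in B16/BL6 and 1.75 FPKM in B16, while the Keap1 points are level at 23.0 and 23.7 FPKM.

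The transcripts of the regulator and its repressor were not among the higher ones. Nfe2l2, the gene of Nrf2 (chromosome 2, 75675513 to 75704663, in mm10 coordinates as below), was at 53.4 FPKM in B16/BL6 and 72.3 FPKM in B16, a log2 difference of -0.43. Keap1, the gene of its cytoplasmic repressor (chromosome 9, 21229730 to 21239332), was at 23.0 FPKM in B16/BL6 and 23.7 FPKM in B16, a log2 difference of -0.04. Once the median of each chromosome's genes was subtracted, this small difference turned to 0.019. The level of Nfe2l2 was 2.32 times that of Keap1 in B16/BL6, against 3.05 times in B16. In rank Nfe2l2 stood at place 1502 from the lowest of the 10709 differences.

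Sqstm1 encodes p62, an autophagy receptor that can bind Keap1 and draw it into autophagosomes, and is itself a target of Nrf2 (chromosome 11, 50200152 to 50210820). It had the highest level of the 10 genes in B16/BL6, at 1266 FPKM, against 663 FPKM in B16, where Prdx1 was higher. The log2 difference was 0.93, just under 2-fold, and 1.03 with each chromosome centred. Sqstm1 stood at 55.0 times the level of Keap1 in B16/BL6 and 27.9 times in B16. Mrnip shares 580 exon bases with Sqstm1 on the opposite strand. Mrnip was at 9.42 FPKM in B16/BL6 and 7.87 FPKM in B16, far below Sqstm1 in both.

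The classical enzyme target differed most. Nqo1 encodes a quinone reductase that reduces quinones in a single step without forming semiquinone radicals (chromosome 8, 107388225 to 107403205). It was at 44.5 FPKM in B16/BL6 and 1.75 FPKM in B16, a ratio of 25.4 and a log2 difference of 4.05, place 19 from the highest of all genes. The B16 value is low, and by a rough estimate of depth it rested on about 27.3 fragments, against 768 in B16/BL6. Nqo1 stood above Keap1 in B16/BL6, at 1.93 times its level, and below it in B16, at 0.0739 times.

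Osgin1, an oxidative stress induced growth inhibitor gene, lies on the same chromosome (chromosome 8, 119425882 to 119446257). It was at 51.7 FPKM in B16/BL6 and 15.5 FPKM in B16, a ratio of 3.34 and a log2 difference of 1.68. Its place was 126 from the highest. These were the genes with the largest differences among the 10, and both stayed above 2-fold under every scaling and pseudocount tried.

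**Figure D2:**
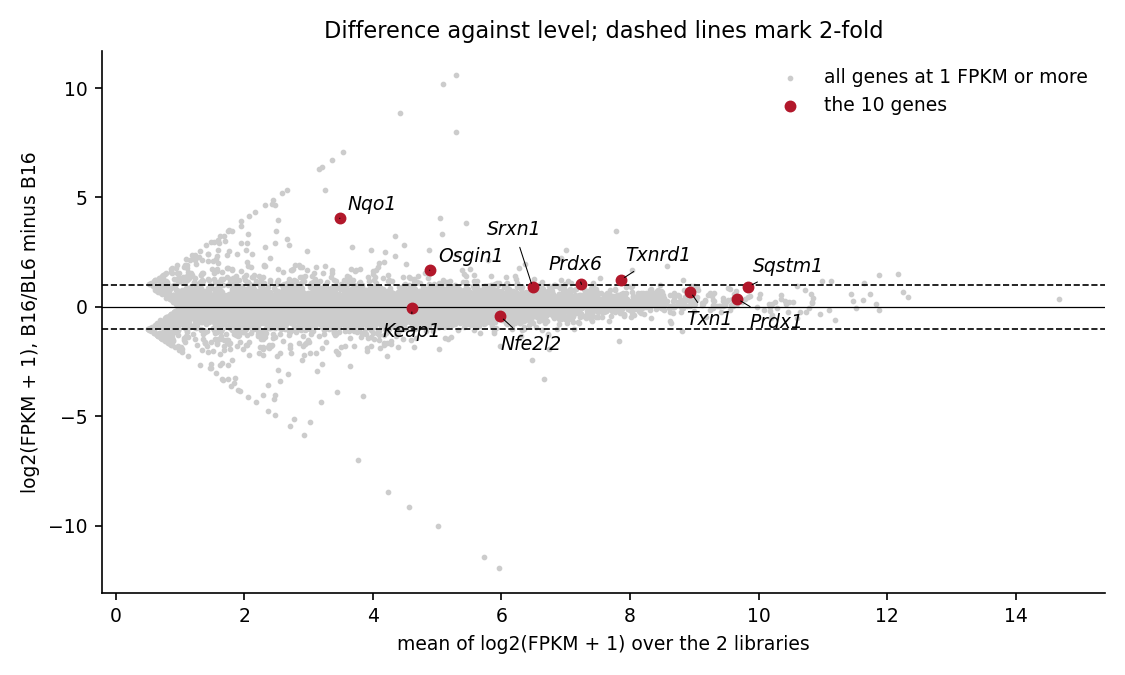
Difference between the lines against the mean level over both libraries for 10709 genes (grey) and the 10 genes (red), in log2(FPKM + 1), with dashed lines at 2-fold. Nqo1 at 4.05 and Osgin1 at 1.68 lie above the upper dashed line, and Keap1 at -0.04 lies next to 0.

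Start regions were read for the element that Nrf2 is known to bind, since 8 of the 10 genes were above 0 and the Nfe2l2 transcript was not. RefSeq windows of GRCm38.p6, from 250 bases before to 50 after a transcript start, were on hand for 9 of the 10 genes, in 11 windows. The core of the antioxidant response element was searched on both strands as TGACNNNGC. It was found in 1 window each of Nfe2l2, Txnrd1, Srxn1 and Prdx1, and in 12.4% of all 32851 windows. A second form, TGANTCAGC, was added after the first matches had been seen. It contains the AP-1 type motif TGANTCA, so that its letters cannot be told from an AP-1 site. It was found for Osgin1, Srxn1 and Prdx1, and in 1.19% of all windows, while TGANTCA alone was found for the same 3 genes and in 7.81% of all windows. As printed here the match began 99 bases before the start in Osgin1, 45 in Srxn1 and 133 in Prdx1. Neither longer form was found for Nqo1, Keap1, Txn1 or Sqstm1, which says only that these letters are not in the windows read. A match is a string of letters and not a bound site.

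The 250 bases before the start are printed on the strand of the gene, 5′ to 3′, with matches to TGACNNNGC or TGANTCAGC on either strand in capitals. A match on the other strand is printed as its reverse complement. The regions are chr8:107403206-107403455 on the minus strand for Nqo1, chr8:119436897-119437146 on the plus strand for Osgin1, chr2:152105274-152105523 on the plus strand for Srxn1, chr4:116685349-116685598 on the plus strand for Prdx1 and chr2:75704664-75704913 on the minus strand for Nfe2l2. The Osgin1 start read here is internal to the annotated gene, and other transcripts begin upstream of it. The Txnrd1 window that held a match, not printed here, likewise lies inside its annotated gene.
Nqo1: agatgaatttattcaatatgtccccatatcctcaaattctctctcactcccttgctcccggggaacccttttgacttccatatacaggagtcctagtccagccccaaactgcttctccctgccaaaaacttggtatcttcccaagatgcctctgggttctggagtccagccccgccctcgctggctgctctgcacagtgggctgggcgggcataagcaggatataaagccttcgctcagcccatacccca
Osgin1: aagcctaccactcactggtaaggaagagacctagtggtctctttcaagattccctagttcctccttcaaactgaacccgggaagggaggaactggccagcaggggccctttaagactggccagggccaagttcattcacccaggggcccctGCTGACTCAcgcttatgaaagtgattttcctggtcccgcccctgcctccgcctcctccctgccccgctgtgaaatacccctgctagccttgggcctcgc
Srxn1: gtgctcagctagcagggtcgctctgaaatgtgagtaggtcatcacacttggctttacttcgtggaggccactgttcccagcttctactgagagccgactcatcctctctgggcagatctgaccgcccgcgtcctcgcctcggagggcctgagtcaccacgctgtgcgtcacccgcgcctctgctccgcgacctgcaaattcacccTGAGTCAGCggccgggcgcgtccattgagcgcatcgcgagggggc
Prdx1: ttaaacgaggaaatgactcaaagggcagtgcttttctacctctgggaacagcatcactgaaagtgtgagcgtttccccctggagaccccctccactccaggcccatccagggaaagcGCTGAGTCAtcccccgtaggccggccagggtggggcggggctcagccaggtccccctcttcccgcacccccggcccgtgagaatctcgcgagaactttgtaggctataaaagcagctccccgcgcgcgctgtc
Nfe2l2: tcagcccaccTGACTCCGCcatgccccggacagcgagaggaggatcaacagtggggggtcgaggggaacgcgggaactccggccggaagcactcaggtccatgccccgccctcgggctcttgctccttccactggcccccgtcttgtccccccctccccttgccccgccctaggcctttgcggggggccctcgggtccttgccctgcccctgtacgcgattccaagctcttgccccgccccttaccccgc
Their GC content was 53.2% for Nqo1, 58.4% for Osgin1, 63.2% for Srxn1, 61.6% for Prdx1 and 70.4% for Nfe2l2. The capitals of Srxn1 match TGANTCAGC, and its TGACNNNGC match lies downstream of the start and is therefore not printed. Nqo1 is the one of these 5 regions with no capitals, since the others printed are of genes with a match. Keap1, Txn1 and Sqstm1 also had no match to either longer form and are not printed.

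In the thioredoxin branch the reductase differed more than its substrate, though by little with each chromosome centred. Txnrd1 encodes the cytosolic thioredoxin reductase, a selenoprotein (chromosome 10, 82833951 to 82897724). It was at 356 FPKM in B16/BL6 and 150.2 FPKM in B16, a log2 difference of 1.24. The 528 expressed genes of chromosome 10 had a median log2 difference of 0.41, with 46 at least 2-fold higher and 9 lower, the highest such median of the 7 chromosomes that carry the 10 genes. After subtraction of that median the difference of Txnrd1 was 0.83, under 2-fold. Txn1, the cytosolic thioredoxin that Txnrd1 reduces (chromosome 4, 57943373 to 57956411), was at 622 FPKM in B16/BL6 and 384 FPKM in B16, a log2 difference of 0.69. With each chromosome centred the difference of Txn1 was 0.70, close to the 0.83 of Txnrd1. Txnrd1 reached 0.572 of the level of Txn1 in B16/BL6 and 0.391 in B16. The levels in this ratio and in the family shares below were not centred by chromosome.

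Txnrd1 and Txn1 took larger shares of their families in B16/BL6. Txnrd1 made up 88.2% of the summed FPKM of the 3 thioredoxin reductase genes in B16/BL6 and 82.6% in B16. Txnrd2, the mitochondrial reductase, was at 23.6 FPKM in B16/BL6 and 22.1 FPKM in B16. Txnrd3, the thioredoxin-glutathione reductase, was at 24.0 FPKM in B16/BL6 and 9.55 FPKM in B16, a log2 difference of 1.25. Txn1 made up 66.3% of the 2 thioredoxin transcripts in B16/BL6 and 57.1% in B16, and the mitochondrial Txn2 was at 316 FPKM in B16/BL6 and 288 FPKM in B16.

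Among the peroxide-removing genes, Prdx6 and Srxn1 differed more than Prdx1. Prdx6 encodes a peroxiredoxin with a single active cysteine that draws on glutathione rather than thioredoxin (chromosome 1, 161240112 to 161251210). It was at 215 FPKM in B16/BL6 and 105 FPKM in B16, a log2 difference of 1.03. That value is close to the 2-fold limit and fell below it on the TPM scale, with each library rescaled to a sum of 1000000 (0.86), and after both libraries were scaled to the same upper quartile (0.98). Srxn1 encodes sulfiredoxin, which restores peroxiredoxins whose cysteine has been oxidised too far (chromosome 2, 152105524 to 152111376). It was at 121 FPKM in B16/BL6 and 64.6 FPKM in B16, a log2 difference of 0.90. Prdx1 encodes an abundant cytosolic peroxiredoxin that thioredoxin reduces (chromosome 4, 116685599 to 116700000). It was at 921 FPKM in B16/BL6 and 712 FPKM in B16, a log2 difference of 0.37, and the smallest difference of the 8 genes above 0.

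Prdx1 remained the main peroxiredoxin transcript in both libraries, with 52.2% of the summed FPKM of the 6 peroxiredoxin genes in B16/BL6 and 55.7% in B16. Prdx6 made up 12.2% in B16/BL6 and 8.23% in B16. The family summed to 1764 FPKM in B16/BL6 and 1278 FPKM in B16. The other peroxiredoxins were within 2-fold. Prdx2, also cytosolic, was at 304 FPKM in B16/BL6 and 233 FPKM in B16, and the mitochondrial Prdx3 was at 130 and 112 FPKM in B16/BL6 and B16. Prdx4, of the secretory pathway, was at 103 FPKM in B16/BL6 and 66.0 FPKM in B16, and Prdx5 was at 89.9 and 49.4 FPKM in B16/BL6 and B16. Annotated processed pseudogenes matched Prdx1 (2 copies, at 98.3% and 97.5% identity over 597 bases) and Txn1 (1 copy, 95.8% over 309 bases). These copies are not among the symbols used here, and the assignment of shared reads is not stated in the labels or headers, so the levels of Prdx1 and Txn1 are uncertain to that extent.

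**Figure D3:**
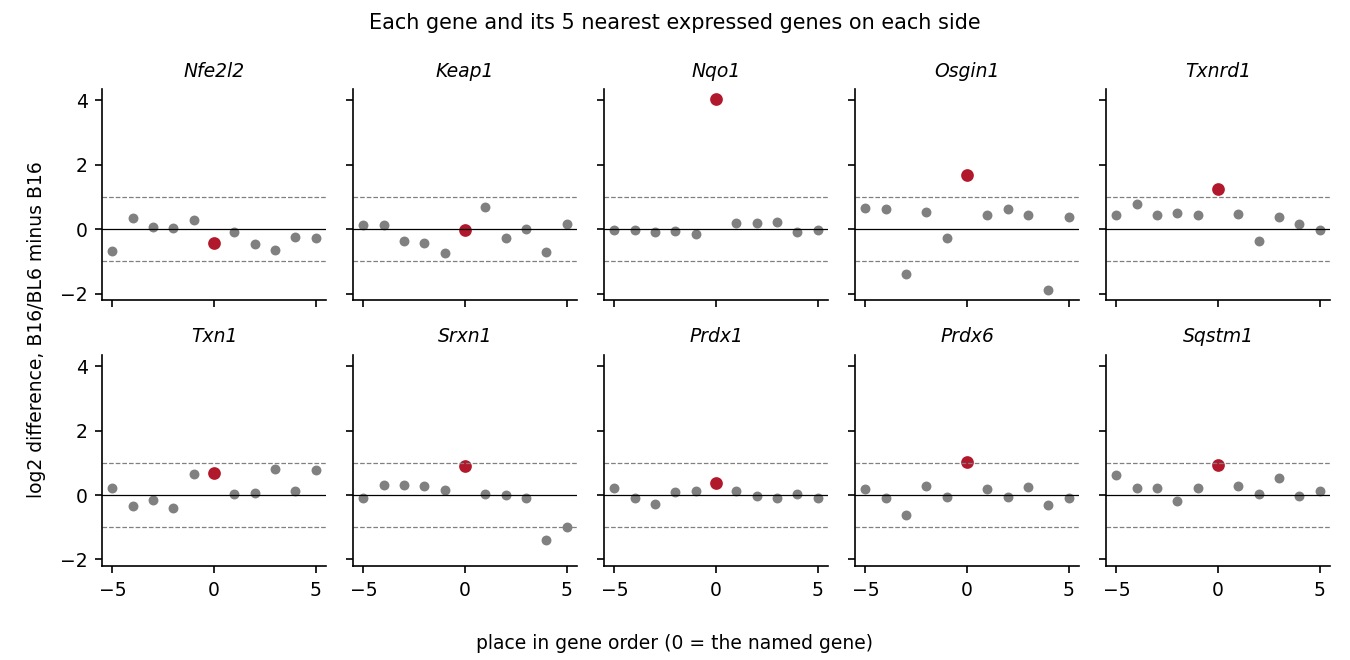
Log2 difference of each of the 10 genes (red, at place 0) and of the 5 nearest expressed genes on each side (grey), in gene order, with dashed lines at 2-fold. The 10 neighbours of Nqo1 lie between -0.15 and 0.23, and those of Txnrd1 have a median of 0.43.

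The differences were set beside those of the neighbouring genes. The 10 expressed neighbours of Nqo1, 5 on each side, lay between -0.15 and 0.23 on the log2 scale, while Nqo1 was at 4.05. With 10 neighbours on each side the range was -0.29 to 0.25. The neighbours of Prdx6 lay between -0.63 and 0.29 with either number, below the gene's own 1.03. Those of Prdx1 lay between -0.27 and 0.20, but with 10 on each side they ran up to 0.77, above the gene's own 0.37. The neighbours of Osgin1 had a median of 0.43 and ran up to 0.65, but held 2 genes that were at least 2-fold lower, the cadherin gene Cdh13 (2.09 FPKM in B16/BL6 and 7.09 FPKM in B16) and Wfdc1 (1.54 and 8.48 FPKM in B16/BL6 and B16). With 10 on each side they ran up to 1.70, against 1.68 for Osgin1, and 2 were at least 2-fold higher. The neighbours of Txnrd1 had a median of 0.43 and a highest value of 0.77. With 10 on each side the median was again 0.43, but the highest value was 1.63, above the 1.24 of Txnrd1, and 2 were at least 2-fold higher and 1 lower. For Txn1 the highest neighbour, at 0.81, exceeded the gene's own 0.69. The neighbours of Sqstm1 had a median of 0.21 and those of Srxn1 of 0.02, and the Srxn1 neighbours included Trib3 (6.72 FPKM in B16/BL6 and 19.5 FPKM in B16) and Defb25 (listed at 0 in B16/BL6 and at 1.01 FPKM in B16), both at least 2-fold lower. The neighbours of Nfe2l2 and Keap1 were all within 2-fold with 5 on each side, and with 10 the neighbours of Nfe2l2 held 1 gene at least 2-fold lower and those of Keap1 1 at least 2-fold higher.

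The other genes of the pathway were drawn from 9 lists, also chosen with earlier results of these data known. Of their 104 expressed genes, 7 (6.73%) were higher in B16/BL6 by 2-fold or more and 5 (4.81%) lower, against 3.31% and 3.16% of all genes. The single lists are short, so a count of 0 in a list is close to these shares. The median log2 difference of the 104 genes was 0.09, and -0.06 on the TPM scale, where the median of all genes moved by -0.16.

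Other textbook targets of Nrf2 held 5 of the 7 higher genes. Of 26 expressed targets, 5 were at least 2-fold higher, 1 lower and 19 above 0, with a median of 0.49. Over all genes, 3.31% were at least 2-fold higher, 3.16% lower and 50.6% above 0. On the TPM scale, where 27 targets passed the minimum, 4 were higher and 2 lower, with a median of 0.36. With a pseudocount of 0.1 there were also 2 lower targets. The low gene Trim16 was at 0.2003 FPKM in B16/BL6 and 1.28 FPKM in B16, a log2 difference of -0.92. The ferritin genes Ftl1 (7820 FPKM in B16/BL6 and 2719 FPKM in B16) and Fth1 (6235 and 2244 FPKM in B16/BL6 and B16) encode the chains of the iron store, and both have many pseudogene copies, so that their levels are uncertain. Mgst1, a membrane glutathione transferase gene, was at 107 FPKM in B16/BL6 and 40.8 FPKM in B16. Hmox1, which opens the heme ring, was at 87.9 FPKM in B16/BL6 and 40.6 FPKM in B16. Blvrb, a biliverdin reductase gene, was at 186 and 77.8 FPKM in B16/BL6 and B16. The carbonyl reductase gene Cbr1 was lower, at 9.12 FPKM in B16/BL6 and 27.7 FPKM in B16. The glutathione synthesis genes were within 2-fold, with Gclm at 49.9 FPKM in B16/BL6 and 27.1 FPKM in B16, and the cystine transporter gene Slc7a11 at 3.66 and 2.39 FPKM in B16/BL6 and B16.

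**Figure D4:**
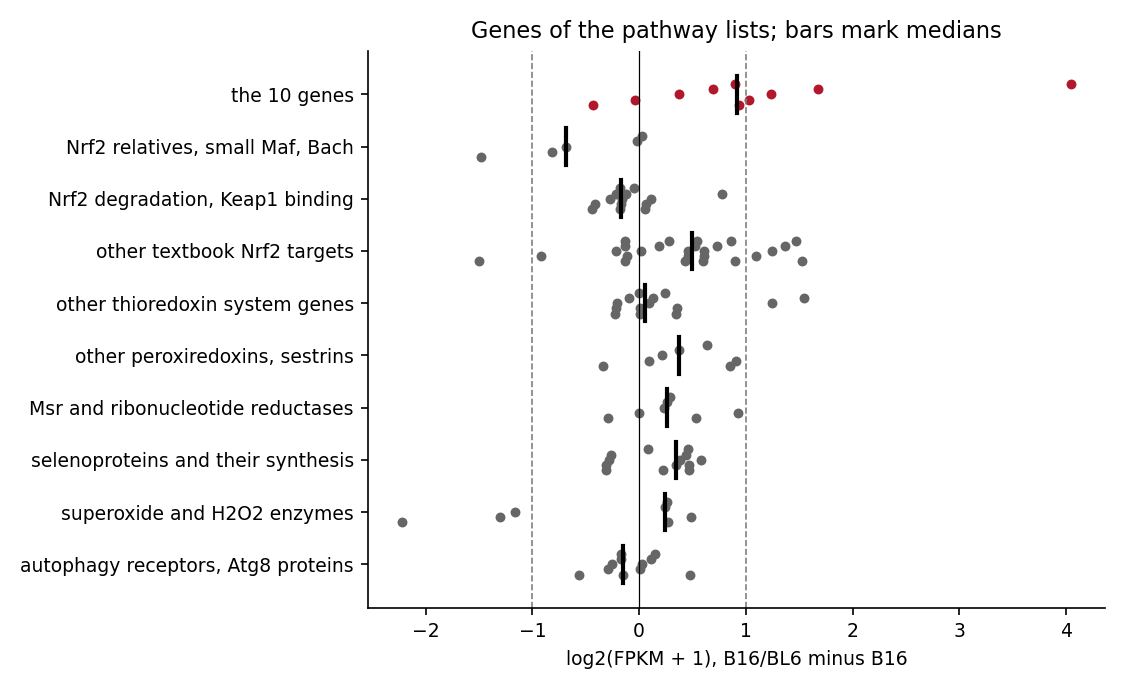
Log2 difference, B16/BL6 minus B16, of the 10 genes (red) and of the expressed genes of 9 pathway lists (grey), 1 point per gene, with bars at the medians and dashed lines at 2-fold. The median of the 10 genes is 0.92, that of the other textbook Nrf2 targets 0.49 and that of the Nrf2 relatives, small Maf and Bach genes -0.69.

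Of 5 expressed relatives, partners and repressors of Nrf2, 0 were at least 2-fold higher and 1 lower, against 3.31% and 3.16% of all genes. The median of the list was -0.69. Maff, a small Maf partner gene, was the lower one, at 1.86 FPKM in B16/BL6 and 6.998 FPKM in B16, a log2 difference of -1.49. With a pseudocount of 5 the list held 0 lower genes. Mafk was at 10.0 FPKM in B16/BL6 and 16.7 FPKM in B16, while Mafg, the main small Maf transcript, was at 40.6 and 39.8 FPKM in B16/BL6 and B16. Mafg thus made up 77.4% of the small Maf transcripts in B16/BL6 and 62.6% in B16. Bach1, a repressor that competes with Nrf2 for the same elements, was at 10.4 FPKM in B16/BL6 and 10.5 FPKM in B16. Nfe2l1, a relative of Nrf2 that controls proteasome genes, was at 34.7 FPKM in B16/BL6 and 61.9 FPKM in B16.

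Factors that degrade Nrf2 and other proteins that bind Keap1 were listed together. Of 14 expressed genes 0 passed 2-fold in either direction, against 3.31% of all genes higher and 3.16% lower. The median of the list was -0.17. Cul3, the scaffold of the Keap1 ubiquitin ligase, was at 65.3 FPKM in B16/BL6 and 60.4 FPKM in B16. The widest differences were those of the cullin regulator Cand1 on chromosome 10 (42.4 FPKM in B16/BL6 and 24.4 FPKM in B16), the F-box gene Btrc (4.65 and 6.66 FPKM in B16/BL6 and B16) and the Keap1-binding kinase gene Ikbkb (9.86 and 13.5 FPKM in B16/BL6 and B16).

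Of 14 other thioredoxin system genes, 2 were at least 2-fold higher and 0 lower, against 3.31% and 3.16% of all genes. With a pseudocount of 5, 1 was higher. The list had a median of 0.05 that turned to -0.11 on the TPM scale. Besides Txnrd3 the higher gene was Txnip, at 13.5 FPKM in B16/BL6 and 3.95 FPKM in B16. It encodes a protein that binds and inhibits thioredoxin. The level of Txn1 was 46.2 times that of Txnip in B16/BL6 and 97.3 times in B16. The thioredoxin-like membrane protein gene Tmx1 followed, at 101 FPKM in B16/BL6 and 78.8 FPKM in B16.

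Of the 7 other peroxiredoxin and sestrin genes, 0 passed 2-fold, 6 were above 0, and the median was 0.38. The widest difference was that of the sestrin gene Sesn3 (22.7 FPKM in B16/BL6 and 11.7 FPKM in B16). For this list and those that follow, the shares of all genes were 3.31% at least 2-fold higher, 3.16% lower and 50.6% above 0. The 7 genes of methionine sulfoxide and ribonucleotide reduction, both of which can use thioredoxin, had a median of 0.26 with 0 past 2-fold, or 1 higher with a pseudocount of 0.1. Msrb3, on chromosome 10, was at 10.2 FPKM in B16/BL6 and 4.89 FPKM in B16, a ratio of 2.09 and a log2 difference of 0.93. The ribonucleotide reductase gene Rrm2 had a log2 difference of 0.53, and Msrb2 was at 18.4 and 14.8 FPKM in B16/BL6 and B16. The 13 genes of selenoproteins and their synthesis had a median of 0.35 with 0 past 2-fold, or 0.17 with each chromosome centred. Gpx4, a lipid peroxide reductase gene on chromosome 10, was at 32.7 FPKM in B16/BL6 and 21.5 FPKM in B16. On the TPM scale the medians were smaller. They were 0.21 for the peroxiredoxin list, 0.12 for methionine sulfoxide and ribonucleotide reduction, and 0.18 for selenoproteins.

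Of 7 expressed genes that make or remove superoxide and hydrogen peroxide, 0 were at least 2-fold higher and 3 lower. Of all genes, 3.31% were higher and 3.16% lower by as much. The list had a median of 0.24, and 0.07 on the TPM scale. With a pseudocount of 5 or a minimum of 5 FPKM, 1 of its genes was lower. Cyba, a membrane subunit gene of NADPH oxidases, was at 7.60 FPKM in B16/BL6 and 39.1 FPKM in B16. Its oxidase partner gene Nox4 was at 1.64 FPKM in B16/BL6 and 4.92 FPKM in B16, and Sod3, the secreted superoxide dismutase gene, at 1.34 and 4.78 FPKM in B16/BL6 and B16. Of 11 other autophagy receptor and Atg8 genes, the class to which Sqstm1 belongs, 0 passed 2-fold and the median was -0.15. The largest difference among them was that of Map1lc3a, at 10.1 FPKM in B16/BL6 and 15.4 FPKM in B16, followed by Gabarapl1, at 99.8 FPKM in B16/BL6 and 71.6 FPKM in B16.

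**Figure D5:**
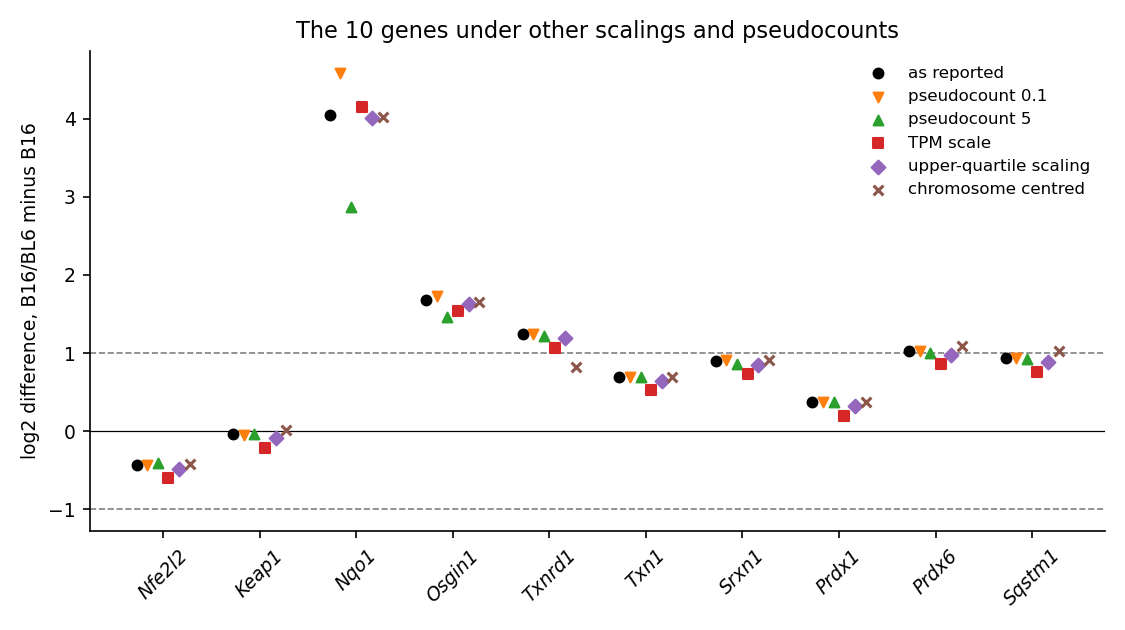
Log2 difference, B16/BL6 minus B16, of the 10 genes as reported (black) and under 5 other pseudocounts, scalings or centrings (colours), with dashed lines at 2-fold. Nqo1 runs from 2.87 to 4.59 and stays above 2-fold, Prdx6 and Sqstm1 lie on both sides of the upper line, and Txnrd1 falls to 0.83 with each chromosome centred.

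In order of level the 10 genes ran from Sqstm1 through Prdx1, Txn1, Txnrd1, Prdx6, Srxn1, Nfe2l2, Osgin1 and Nqo1 to Keap1 in B16/BL6. In B16 the order was Prdx1, Sqstm1, Txn1, Txnrd1, Prdx6, Nfe2l2, Srxn1, Keap1, Osgin1 and Nqo1. The genes in places 3 to 5 were the same in both. Without replicates it cannot be said which neighbours in these orders differ beyond their error.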

How the data were processed

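The deposited values were FPKM, 1 per gene symbol and library, per the file headers. The library kit was TruSeq stranded mRNA, per the labels' protocols. Cufflinks 2.2.1, SAMtools 0.1.19, Bowtie2 2.2.3, TopHat2 2.0.13 and the mm10 build are listed in the submitters' processing notes, without their roles. Gene annotation, strand setting, multiply mapped reads and depth: not given in the sources used here. A scan of single-transcript genes under 0.2 FPKM put the depths near 11100000 fragments in B16/BL6 and 10000000 in B16. This used a window of 8000000 to 14000000 that an earlier look at these data had set, so fragment numbers are rough and no interval was derived.

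Differences used a pseudocount of 1, a minimum of 1 FPKM in at least 1 library and a 2-fold limit. No count model was applied to FPKM. Positions and start windows came from RefSeq GRCm38.p6, the assembly of mm10. Overlaps, and copies at 95% identity over 200 bases (BLAST 2.17.0), came from GENCODE M21. Of each list, genes past 2-fold, or otherwise up to 3 with the largest differences, and 13 fixed genes were eligible for naming. The 10 genes and all lists were chosen with earlier results of these data known. The calling step was tested on simulated data, with planted changes well past the 2-fold limit in genes away from low FPKM. This does not bear on calls near 2-fold or at low FPKM. A leukocyte marker is not reported here.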

Additional observations from a re-analysis of the deposited data

How the results depend on the processing

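Without replicates no setting could be weighed against an error, and leaving out a library was not possible. No paired analysis was possible because each line had 1 library and no test was run. Of the 10 genes, 3 were at least 2-fold higher on the TPM scale and after upper-quartile scaling, where Prdx6 fell under the limit. With each chromosome centred there were 4, with Sqstm1 (1.03) in place of Txnrd1 (0.83), and Keap1 turned to 0.019. At a 1.5-fold limit there were 7. Over all genes the counts higher and lower were 492 and 511 with a pseudocount of 0.1, 151 and 118 with 5, 246 and 212 with a minimum of 5 FPKM, 369 and 583 on the TPM scale, and 1005 and 917 at 1.5-fold. Of the genes in the pathway lists, 2 were lower with a pseudocount of 5 and 3 with a minimum of 5 FPKM, and 18 were higher and 8 lower at 1.5-fold. The cause of these changes was not tested, beyond what each setting does by construction. The lowest member value, Nqo1 in B16, is the one that depth limits most, and its log2 difference ran from 2.87 to 4.59.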
